A study of Rattus norvegicus with 28 samples.

Results

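The rat major histocompatibility complex (MHC), named RT1, was examined in prefrontal cortex RNA from 28 adult male Sprague-Dawley rats. Of the 36387 gene rows in the count table, 44 have a symbol that starts with RT1-, and the 29 of these with a total count of at least 100 over the 28 libraries were taken as members. Sprague-Dawley is an outbred stock, so the animals can carry different forms of these genes. The animals were 8 weeks old on arrival. Every animal had an intraperitoneal injection of ketanserin, a serotonin receptor antagonist, or of its Tween-80 vehicle, and then one of psilocybin, a psychedelic whose metabolite activates serotonin receptors, or of saline. Cortex was collected 24 h later. The 7 groups held 4 animals each. The vehicle group had both vehicles, 2 groups had psilocybin (1 or 3 mg/kg) after the Tween-80 vehicle, 2 had ketanserin (1 or 3 mg/kg) before saline, and 2 had both drugs, each at 1 mg/kg or each at 3 mg/kg. The labels describe the 4 libraries of a group as biological replicates and name no litter, batch or pairing, and the replicate numbers used here only name libraries. The comparisons ask whether either drug, or the pair, was followed by a difference in RT1 RNA a day later, and how far animals treated alike differed from each other.

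MHC class I proteins sit on the cell surface with beta-2 microglobulin (B2m) and display peptides made inside the cell to CD8+ T cells. Class II proteins are pairs of an alpha and a beta chain that display peptides from engulfed material to CD4+ T cells, and in the brain they are known mainly from microglia, border macrophages and dendritic cells. The invariant chain Cd74 escorts class II pairs, DM exchanges the peptide and DO restrains DM. In cortex, neurons also make class I RNA, where it has been linked to synapse remodelling. RT1-A genes encode classical class I molecules, RT1-B and RT1-D the class II pairs, and most other RT1 class I genes are nonclassical or of the variable CE region, whose gene content differs between rat strains.

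Promoter sequences of RT1 genes are shown first because these genes share short control elements. Of the 29 members, 26 were matched to a RefSeq promoter (assembly GRCr8), and RT1-CE7, RT1-DMb and RT1-M1-4 were not matched. The 250 bases before each start were searched on both strands for 4 elements that were chosen after the expression values had been seen. The letters ATTGG, the inverted CCAAT box known from class II promoters, were in 6 of 6 class II promoters and 13 of 20 class I promoters, beside 34.0% of all 33469 promoters. The 4 class II chain promoters are printed from 150 bases before the start to the last base before it, 5′ to 3′ on the strand of the gene, with ATTGG or its reverse complement in capitals. The windows are chr20:4515265-4515414, plus strand, for RT1-Da, chr20:4560163-4560312, minus strand, for RT1-Db1, chr20:4576907-4577056, plus strand, for RT1-Ba, and chr20:4604119-4604268, minus strand, for RT1-Bb (GRCr8).
RT1-Da: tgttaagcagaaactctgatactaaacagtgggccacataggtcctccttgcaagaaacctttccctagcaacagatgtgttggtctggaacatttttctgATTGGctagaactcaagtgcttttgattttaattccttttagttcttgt
RT1-Db1: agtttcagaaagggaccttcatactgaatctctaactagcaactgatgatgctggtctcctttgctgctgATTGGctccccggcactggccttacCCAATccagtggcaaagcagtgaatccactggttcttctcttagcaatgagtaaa
RT1-Ba: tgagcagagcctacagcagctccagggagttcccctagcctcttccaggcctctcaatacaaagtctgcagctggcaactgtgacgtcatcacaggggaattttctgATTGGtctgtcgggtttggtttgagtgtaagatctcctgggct
RT1-Bb: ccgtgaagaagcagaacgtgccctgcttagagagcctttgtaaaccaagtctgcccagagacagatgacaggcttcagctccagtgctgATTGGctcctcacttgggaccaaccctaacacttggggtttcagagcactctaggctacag
The first base of the box nearest to the start lay 49 bases before it in RT1-Da, 55 in RT1-Db1, 43 in RT1-Ba and 61 in RT1-Bb. In RT1-DOb and RT1-DMa it lay 57 and 34 bases before the start.

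The kappa B element known from class I promoters, searched on both strands as the letters in capitals in the lines below, was in 5 of 20 class I promoters (RT1-CE16, RT1-A2, RT1-A1, RT1-CE4 and RT1-CE10), in 0 of 6 class II promoters and in 0.102% of all promoters. RT1-CE16, the member that varied most between animals, and RT1-A2, a classical class I gene, are printed from 200 to 51 bases before the start, with that element in capitals. The windows are chr20:3265494-3265643, minus strand, for RT1-CE16 and chr20:4872671-4872820, plus strand, for RT1-A2 (GRCr8).
RT1-CE16: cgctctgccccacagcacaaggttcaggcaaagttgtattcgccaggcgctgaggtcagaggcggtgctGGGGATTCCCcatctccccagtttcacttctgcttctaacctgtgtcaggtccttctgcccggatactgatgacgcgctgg
RT1-A2: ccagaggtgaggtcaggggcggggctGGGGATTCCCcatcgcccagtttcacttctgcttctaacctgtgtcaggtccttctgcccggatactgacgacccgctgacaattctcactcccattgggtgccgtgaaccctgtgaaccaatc
The element began 131 bases before the start in RT1-CE16 and 174 bases before it in RT1-A2. The core TGACG of the cyclic AMP response element was in 6 of 20 class I and 1 of 6 class II promoters, beside 18.2% of all. The interferon-stimulated response element, searched as GAAA, NN and GAAA in a row, was in 3 of 20 class I and 0 of 6 class II promoters, beside 3.41% of all. The 5 promoters with the kappa B element belong to genes of similar sequence and are not independent. A match is only a run of letters, and binding was not measured.

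All 29 members lie on chromosome 20 of rn6, between positions 154074 and 5421098, a span of 5.27 Mb. The first position is that of RT1-CE10 alone, and the next member, RT1-M3-1, starts at 1814661. On GRCr8 the promoter of RT1-CE10 (chr20:3384930-3385229) lies between those of RT1-CE16 and RT1-CE5. The stretch used below for neighbouring genes thus takes in a part of rn6 that holds no other member. All 29 passed the filter on low counts and were among the 17404 genes tested. Total counts per library were 12783067 to 18538414 (median 15366977.5), of which the members together took 1052 to 2044. The library of both drugs at 3 mg/kg replicate 4 stood apart, with 19602 rows at 0 where the others had 15344 to 16657. Many of the fitted differences and Pearson correlations named below that use it are also given without it. The r values that measure likeness to genes outside the family, the RT1-CE16 differences and the Ifi30 difference are given only with it. The 5 neuron markers summed to 5166 to 6026 CPM (counts scaled to the library total), and the 6 lymphocyte markers to 0 to 2.15 CPM, none of them passing the filter. The 15 RT1 rows under the minimum total held 60 counts at most, in RT1-DOa, the alpha chain of DO, and in the pseudogene RT1-M10-2-ps. RT1-Ha and RT1-Db2, further class II chain genes, had 1 and 2 counts.

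RT1 RNA in this cortex was mostly class I. The 20 members that are class I but not RT1-A took 87.3% of the member counts, the 2 RT1-A genes 4.84%, the 4 class II chains 4.18% and the 3 class II helpers 3.66%. The 20 summed to 77.3 to 113.7 CPM per library (median 91.9), and the class II chains to 0.686 to 8.94 CPM (median 4.31). The total over 29 members ranged from 80.1 to 125.6 CPM (median 107.3). This is a narrower relative range than that of each member singly, which a sum over many genes would tend to show in any case. In tissue RNA, fewer cells of a type and less RNA per cell cannot be told apart. As a scale, B2m, the light chain that all class I proteins need, had a mean of 215 CPM (108.1 to 324.8 over 28 libraries) and the class II escort Cd74 had 12.5 CPM (5.10 to 30.7).

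Per length, in the FPKM values that the authors deposited, which scale counts by gene length and library size, RT1-N2 had the highest mean level at 12.8, with a range of 0.0358 to 19.9 over the 28 libraries. RT1-S3, the rat counterpart of the Qa-1 molecule that presents leader peptides to natural killer cell receptors, followed at 9.86 (6.10 to 14.7). RT1-M3-1, whose protein is known for presenting formylated bacterial peptides, had 6.69 FPKM (3.57 to 9.59). The next levels were 4.12 FPKM for RT1-T24-4 and 4.07 for RT1-S2, and those of RT1-T24-3, RT1-O1, RT1-M6-2, RT1-CE16 and RT1-M1-2 lay between 2.35 and 2.86. RT1-O1, RT1-M1-2 and RT1-M1-4 are annotated as unprocessed pseudogenes. The classical genes were lower, with 1.91 FPKM for RT1-A2 and 0.681 for RT1-A1. These 2 genes overlap by 3555 bases on the same strand, so their reads may have been divided between them or lost. That limits both levels and their share of the member counts. The class II members ranged from 0.150 FPKM for the beta chain RT1-Bb to 0.994 for the alpha chain RT1-Da, with DMa at 0.756, DMb at 0.689 and DOb at 0.488. Thus 10 class I members, 2 of them annotated pseudogenes, had mean levels above that of RT1-A2.

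Treatment was not followed by a difference in any RT1 member that passed correction. In edgeR's quasi-likelihood test, 0 of 29 members were called at an adjusted p under 0.05 in each of the 6 comparisons with vehicle, the 4 comparisons of the combination with a single drug, the 2 interactions and the joint test of the 7 groups. DESeq2 also called 0 of 29 in each. Of all 17404 genes, edgeR called 0.0% in 11 of the 12 comparisons with a direction, 0.00575% (1 gene) for both drugs at 3 mg/kg against vehicle, and 0.0172% (3 genes) in the joint test. The median distance from a member's estimate to its 95% bound was 1.26 to 1.3 log2 units in pairwise comparisons and 1.80 to 1.83 in interactions, which is the precision of a single comparison before adjustment over 17404 genes. The medians of the 29 log2 fold changes lay between -0.24 (both drugs at 3 mg/kg against vehicle) and 0.11 (psilocybin at 3 mg/kg against vehicle), beside -0.02 to 0.04 for all tested genes.

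**Figure D1:**
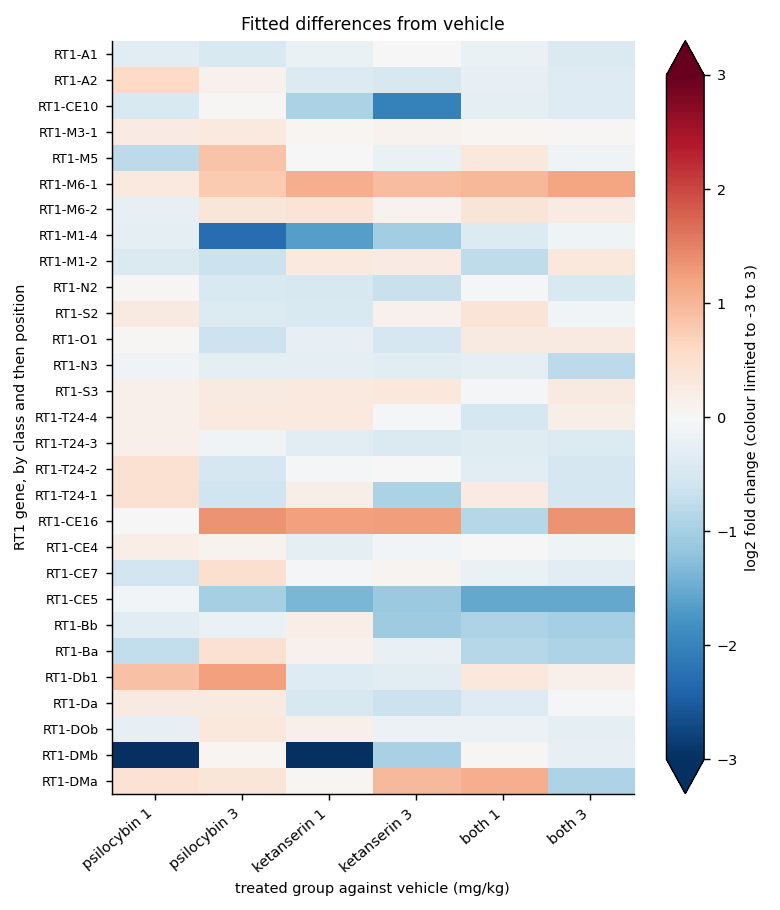
Fitted log2 fold change of each of the 29 RT1 members (rows, class I above class II) in each treated group against vehicle (columns, doses in mg/kg), with colour limited to -3 and 3. No cell passed correction, and the 2 darkest cells are RT1-DMb in the groups given 1 mg/kg of psilocybin (-4.85) or of ketanserin (-4.77), where all 8 libraries held 0 to 3 counts of it. Levels of a like record, LOC100909630, in these groups are given in the text.

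Counts at an unadjusted p under 0.05 are given as a description. Against vehicle they held 1 of 29 members for psilocybin at 1 mg/kg (1.66% of all genes), 0 for psilocybin at 3 mg/kg (3.0%), 3 for ketanserin at 1 mg/kg (2.06%) and 1 for ketanserin at 3 mg/kg (2.0%). The combination held 2 members at 1 mg/kg (1.3%) and 3 at 3 mg/kg (3.13%). Against psilocybin alone the combination held 2 at 1 mg/kg (4.13%) and 0 at 3 mg/kg (5.74%), and against ketanserin alone 2 (2.92%) and 1 (3.41%). The interactions held 1 member each (4.09% at 1 mg/kg and 3.2% at 3 mg/kg), and the joint test held 0 (2.22%). With 29 members, each count is a matter of 3 genes at most.

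In each comparison the 3 members with the lowest p are named. RT1-M6-1, a class I gene of the M region (chr20:2057689-2079467, plus strand, rn6), was among the 3 in 5 of the 6 comparisons with vehicle. Its vehicle libraries held 2.23, 0.726, 2.48 and 1.71 CPM. Those given both drugs at 3 mg/kg held 3.21, 3.11, 2.79 and 7.31 CPM, all above the vehicle range, and the highest came from replicate 4. This is seen in a member named for its low p, and the share of all tested genes separated so is not given. The fitted difference for both drugs at 3 mg/kg was 1.19 log2 units (SE 0.452, adjusted p = 0.999 in edgeR), and 0.76 without replicate 4 (adjusted p = 1 in edgeR). The fitted differences for ketanserin at 1 and 3 mg/kg were 1.10 and 0.92 log2 units, with 2.79 to 5.09 CPM and 1.28 to 5.41 CPM per library. Those for psilocybin at 3 mg/kg and both drugs at 1 mg/kg were 0.78 and 0.99. All of these share the 4 vehicle libraries. RT1-M6-1 overlaps RT1-M6-2 on the same strand, so reads of the pair may have been divided between them.

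RT1-CE5, a class I gene of the CE region (chr20:4892702-4896991, minus strand, rn6), was among the 3 in 4 comparisons with vehicle, at low counts. Its vehicle libraries held 1.22, 1.58, 0.681 and 0.754 CPM (11 to 24 counts), and those given both drugs at 3 mg/kg held 0.211, 0.338, 0.806 and 0.0762 CPM (1 to 13 counts), so the groups overlapped. The fitted difference was -1.53 log2 units (SE 0.657, adjusted p = 0.999 in edgeR), -1.22 without replicate 4 of the combination and -2.28 without its replicate 3. For both drugs at 1 mg/kg it was -1.53, and for ketanserin -1.38 at 1 mg/kg and -1.11 at 3 mg/kg (-1.74 without replicate 3 of that group). RT1-CE5 had the largest share of its variance between groups among the members, 44.6%. It overlaps RT1-CE4 and RT1-CE7 on the same strand, and its reads may have been divided among them.

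RT1-N3 (chr20:3167079-3170945, plus strand, rn6) had the lowest p of any member against vehicle. Vehicle libraries held 2.97, 2.90, 3.28 and 3.98 CPM, and those given both drugs at 3 mg/kg held 2.21, 1.55, 2.54 and 1.22 CPM. All 4 treated libraries were below all 4 vehicle libraries. RT1-N3 was named for its low p, so this separation adds nothing independent. The share of all tested genes that separate in this way is not given here. The fitted difference was -0.79 log2 units (SE 0.268, adjusted p = 0.999 in edgeR). Without replicate 4 of the combination it was -0.64, at an adjusted p of 1 in edgeR. Against psilocybin alone at 3 mg/kg the difference was -0.54 (SE 0.268, adjusted p = 0.693), and against ketanserin alone at 3 mg/kg it was -0.46 (SE 0.269, adjusted p = 1.00). Without replicate 4 of the combination these were -0.38 and -0.30. RT1-N3 was among the 3 steadiest members between animals treated alike.

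The other members named against vehicle were RT1-A2 (0.59 log2 units) and RT1-Db1 (0.87) for psilocybin at 1 mg/kg, and RT1-Db1 (1.22) and RT1-M1-4 (-2.28) for psilocybin at 3 mg/kg. RT1-CE10 was named for ketanserin at 3 mg/kg (-2.02, SE 0.913) and RT1-DMa for both drugs at 1 mg/kg (1.08, SE 0.720). RT1-DMa held 4.95 CPM in replicate 1 of that combination and 0.741 to 1.82 in the other 3 libraries, and the difference was 0.21 without replicate 1. RT1-M1-4 held 0, 2, 8 and 0 counts after psilocybin at 3 mg/kg and 4 to 19 in vehicle, so its fitted value depends on the prior count, and it was -4.08 without replicate 3 of the psilocybin group. RT1-Db1 is the beta chain of the RT1-D pair. Its libraries held 0.541, 1.12, 0.186 and 0.960 CPM in the vehicle group and 1.92, 2.99, 0.624 and 1.02 CPM after psilocybin at 3 mg/kg, and these ranges overlapped. RT1-CE10 had a mean of 0.476 ± 0.267 CPM (SD, n = 4) in vehicle and 0.111 ± 0.0612 CPM (SD, n = 4) after ketanserin at 3 mg/kg, which is 1 or a few counts in a library.

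RT1-DMb, the beta chain of the peptide exchanger DM (chr20:5227045-5234290, minus strand, rn6), gave the largest fitted differences in both directions. All 4 libraries of psilocybin at 1 mg/kg and all 4 of ketanserin at 1 mg/kg held 0 to 3 counts, and in vehicle 2 libraries held 69 and 89 counts and the other 2 held 1 and 3. The fitted log2 differences of -4.85 (SE 1.89) and -4.77 (SE 1.89) depend on the prior count and are not bounds (adjusted p = 1.00 in edgeR for both). Without vehicle replicate 3 they were -4.17 and -4.08, and without psilocybin at 1 mg/kg replicate 4 the first was -5.62. Where both drugs were given at 1 mg/kg, 3 of 4 libraries held 46 to 66 counts, and the interaction was 9.65 log2 units (SE 2.67, adjusted p = 0.938 in edgeR and 0.392 in DESeq2). Against single drugs at 1 mg/kg the combination differed by 4.89 and 4.80 log2 units (adjusted p = 0.894 and 1.00 in edgeR). The interaction was 8.97 without vehicle replicate 3 and 10.4 without psilocybin at 1 mg/kg replicate 4, and without the latter the difference from psilocybin was 5.65. No library held a level between 0.206 and 2.35 CPM. These differences are of the RT1-DMb record alone. Most libraries of the 2 single-drug groups at 1 mg/kg held a like record, LOC100909630, whose levels are given below.

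Among the remaining members named in comparisons of the combination, RT1-T24-4 at 1 mg/kg was -0.65 log2 units against psilocybin (SE 0.333), -0.79 against ketanserin (SE 0.333) and -0.95 in the interaction (SE 0.468). Its means were 6.47 ± 2.10 CPM in vehicle, 7.22 ± 1.95 after psilocybin, 7.94 ± 3.51 after ketanserin and 4.6 ± 1.46 after both (SD, n = 4 each). RT1-S3 was -0.37 against ketanserin at 1 mg/kg and -0.53 in the interaction, and RT1-CE5 was -1.44 against psilocybin at 1 mg/kg. At 3 mg/kg, RT1-DMa was -1.30 against psilocybin, -1.91 against ketanserin and -2.28 in the interaction (SE 1.05). RT1-DMa held 6.06 CPM in ketanserin at 3 mg/kg replicate 1 and 0.252 to 0.929 CPM in the other 3 libraries of that group. Without that library the difference from ketanserin was -0.22 and the interaction -0.58, so both values rest mostly on it. RT1-M1-4 was 2.16 against psilocybin and 3.19 in the interaction, and 3.96 and 4.99 without psilocybin at 3 mg/kg replicate 3. RT1-CE10 was 1.63 against ketanserin, and RT1-O1 was 1.40 in the interaction. Without both drugs at 3 mg/kg replicate 4, RT1-DMa was -1.52, -2.14 and -2.51 in its 3 comparisons, RT1-M1-4 was 1.91 and 2.94, RT1-CE10 was 2.01 and RT1-O1 was 1.32. None had an adjusted p under 0.693 in edgeR. The joint test gave its lowest p to RT1-DMb (0.0614), RT1-CE5 (0.0826) and RT1-M6-1 (0.138), each with an adjusted p of 1 in edgeR.

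Between animals treated alike, the median member spread more than the median tested gene, by an amount that depended on the pseudocount. The within-group SD of log2(CPM + 0.1), pooled over the 7 groups, had a median of 0.970 over the 29 members and 0.342 over all 17404 tested genes. Low counts give a large SD on this scale, and 10 members had a mean under 1 CPM. With a pseudocount of 2 in place of 0.1, the medians were 0.325 and 0.234. Set beside the 500 tested genes nearest in mean level, 23 of 29 members were above the median SD. Of these, 5 were above the 90th percentile (RT1-N2, RT1-CE16, RT1-DMb, RT1-M1-4 and RT1-M1-2). For RT1-N2 the SD rests largely on 1 library with 1 count of it, ketanserin at 1 mg/kg replicate 2. The 111 other tested genes with a gene name that start within the same stretch of chromosome 20 had a median SD of 0.366. The share of a member's variance that lay between the 7 groups had a median of 19.5% (10.6 to 44.6%), beside 18.5% over all tested genes.

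**Figure D2:**
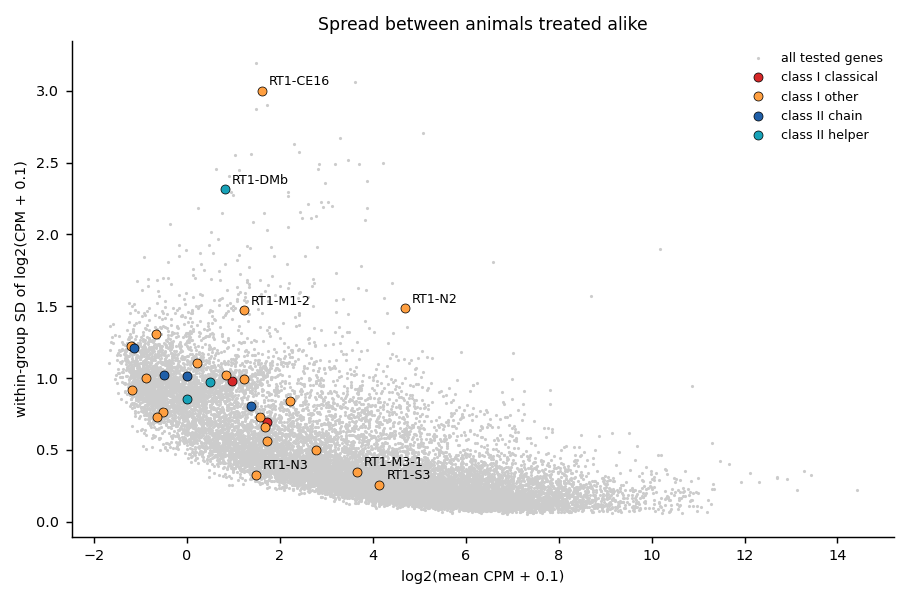
Within-group SD of log2(CPM + 0.1) against mean level on a log2 axis for 17404 tested genes (grey) and the 29 RT1 members (coloured by role). RT1-CE16 (3.00), RT1-DMb (2.32), RT1-N2 (1.49) and RT1-M1-2 (1.47) lie above most genes of their level. RT1-S3 (0.258), RT1-N3 (0.326) and RT1-M3-1 (0.347) lie among genes of their level or lower. The value of RT1-N2 rests largely on 1 library at 0.0716 CPM.

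Among members with a mean of at least 1 CPM, the 3 steadiest were class I genes. RT1-S3 ranged from 10.9 to 26.1 CPM over 28 libraries with an SD of 0.258, which is the 46.0th percentile among genes of its level. Its vehicle libraries held 13.8, 16.4, 17.3 and 14.5 CPM. RT1-N3 had an SD of 0.326, the 4.0th percentile, and RT1-M3-1 one of 0.347, the 64.6th percentile. At the other end stood RT1-CE16 with 3.00, RT1-DMb with 2.32 and RT1-N2 with 1.49. The SD of RT1-N2 rests largely on 1 library, ketanserin at 1 mg/kg replicate 2. That library held 0.0716 CPM of it where the others held 12.5 to 40.2 CPM.

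Some members were at 2 levels: near 0 in some animals and clearly present in the rest. A gene was counted so where the ordered 28 values of log2(CPM + 0.1) had a gap of at least 1 with at least 3 libraries on each side and the mean was at least 0.5 CPM. By that rule 3 of 29 members (10.3%) were at 2 levels, RT1-CE16, RT1-DMb and RT1-M1-2, beside 1.06% of all tested genes (185 genes). Of the 111 other named tested genes in the same stretch of chromosome, 8 (7.21%) were, among them a record of the peptide transporter subunit Tap2. Each group held animals at both levels for at least 1 of the 3 members.

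RT1-CE16, a class I gene of the CE region (chr20:3791407-3794027, minus strand, rn6), was the sharpest case. In vehicle it held 0, 0, 6.32 and 0.274 CPM, after psilocybin at 1 mg/kg 0, 6.73, 0 and 0 CPM, and after psilocybin at 3 mg/kg 4.26, 6.71, 6.04 and 0 CPM. After ketanserin it held 0, 7.88, 0 and 7.75 CPM at 1 mg/kg and 3.98, 5.17, 0 and 6.68 CPM at 3 mg/kg. After both drugs it held 0, 0, 3.87 and 0 CPM at 1 mg/kg and 6.74, 4.32, 0 and 6.02 CPM at 3 mg/kg. Exactly 14 animals lay at 0.274 CPM or below (13 of them at 0 counts, which allows up to 3 counts) and 14 at 3.87 to 7.88 CPM, with none between. The high animals numbered 1, 1, 3, 2, 3, 1 and 3 of 4 in the groups in that order, and every group held both kinds. The fitted differences from vehicle were -0.85 to 1.35 log2 units with SEs of 1.76 to 1.87, and the joint test of the 7 groups gave an adjusted p of 1 in edgeR.

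RT1-DMb lay at 0.206 CPM or below in 17 animals and at 2.35 to 8.31 CPM in 11. In vehicle it held 0.0676, 4.55, 5.51 and 0.206 CPM, after psilocybin at 1 mg/kg 0.0654, 0.0686, 0 and 0.187 CPM, and after psilocybin at 3 mg/kg 8.31, 0.0564, 2.43 and 0 CPM. After ketanserin it held 0.139, 0.143, 0 and 0.0717 CPM at 1 mg/kg and 2.93, 0, 2.35 and 0.0630 CPM at 3 mg/kg. After both drugs it held 0.0612, 4.30, 3.49 and 2.79 CPM at 1 mg/kg and 0, 3.65, 5.02 and 0.0762 CPM at 3 mg/kg. The high animals thus numbered 2, 0, 2, 0, 2, 3 and 2 of 4, and the 2 groups with none were those given 1 drug at 1 mg/kg. Most libraries of those 2 groups held LOC100909630, a like record described below. It was at 2.68, 3.3, 4.37 and 5.92 CPM after psilocybin at 1 mg/kg. After ketanserin at 1 mg/kg it was at 2.36, 0.143, 4.06 and 3.87 CPM, and in vehicle at 4.93, 0, 0.0619 and 0 CPM.

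RT1-M1-2, an annotated pseudogene of the class I M region (chr20:2408025-2409927, minus strand, rn6), lay at 0.0651 to 0.263 CPM in 5 animals and at 0.935 to 7.16 CPM in 23. The 5 low animals were 1 given psilocybin at 3 mg/kg (0.204 CPM), 1 given ketanserin at 1 mg/kg (0.143), 2 given both drugs at 1 mg/kg (0.0651 and 0.152) and 1 given both at 3 mg/kg (0.263). The highest value, 7.16 CPM, was in the library of both drugs at 3 mg/kg replicate 4, the one that stood apart, and the next was 5.06 CPM. The 3 genes did not split the animals alike. RT1-CE16 and RT1-DMb were both high in 6 animals and both low in 9, RT1-CE16 and RT1-M1-2 both high in 11 and both low in 2, and RT1-M1-2 and RT1-DMb both high in 9 and both low in 3.

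**Figure D3:**
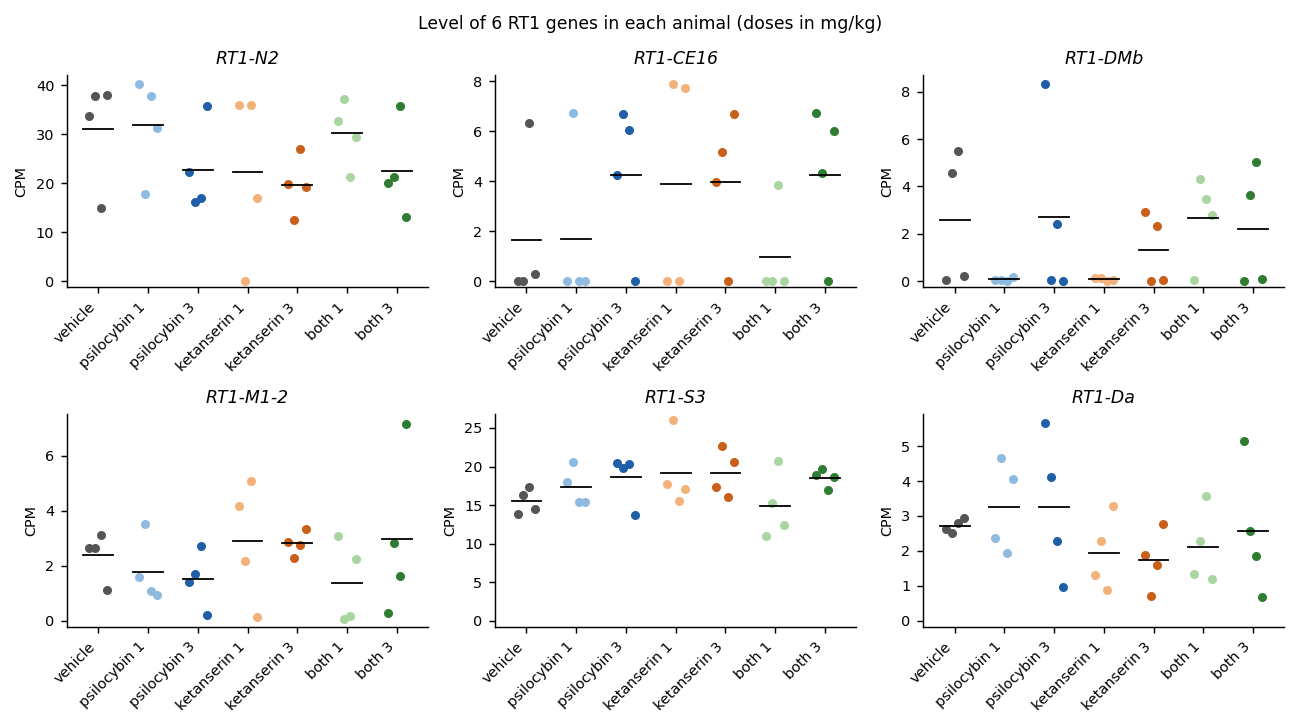
CPM of 6 RT1 genes in each animal (points) by treatment group, with the group mean as a line and doses in mg/kg on the x axis. RT1-CE16, RT1-DMb and RT1-M1-2 show animals near 0 and animals well above it within a group, and RT1-S3 stays between 10.9 and 26.1 CPM in all 28.

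RT1-N2, the member with the highest level (chr20:3146856-3150852, plus strand, rn6), was described after its values had been seen, since the rule on 2 levels did not count it. In vehicle it held 33.7, 37.9, 14.9 and 37.9 CPM, after psilocybin at 1 mg/kg 40.2, 17.9, 37.9 and 31.4 CPM, and after psilocybin at 3 mg/kg 22.2, 16.1, 16.9 and 35.8 CPM. After ketanserin it held 35.9, 0.0716, 36.0 and 16.9 CPM at 1 mg/kg and 19.8, 12.5, 27 and 19.1 CPM at 3 mg/kg. After both drugs it held 32.7, 37.2, 21.3 and 29.5 CPM at 1 mg/kg and 20.0, 21.3, 35.8 and 13.0 CPM at 3 mg/kg. The ordered values formed 1 library at 0.0716 CPM (1 count), 13 at 12.5 to 22.2 CPM and 14 at 27 to 40.2 CPM. The animals in the lower 14 were the same 14 that were high for RT1-CE16. Animals high for RT1-CE16 held 0.0716 to 22.2 CPM of RT1-N2, those low for it held 27 to 40.2 CPM, and the sides did not overlap. Among the 28 members other than RT1-CE16, RT1-N2 was the one whose values did not overlap between those sides. The share of all tested genes that do not overlap between them is not given here, so how unusual this is cannot be judged. RT1-S3 overlapped only slightly. It held 17.14 to 26.08 CPM in the animals high for RT1-CE16 and 10.95 to 17.93 CPM in those low for it.

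**Figure D4:**
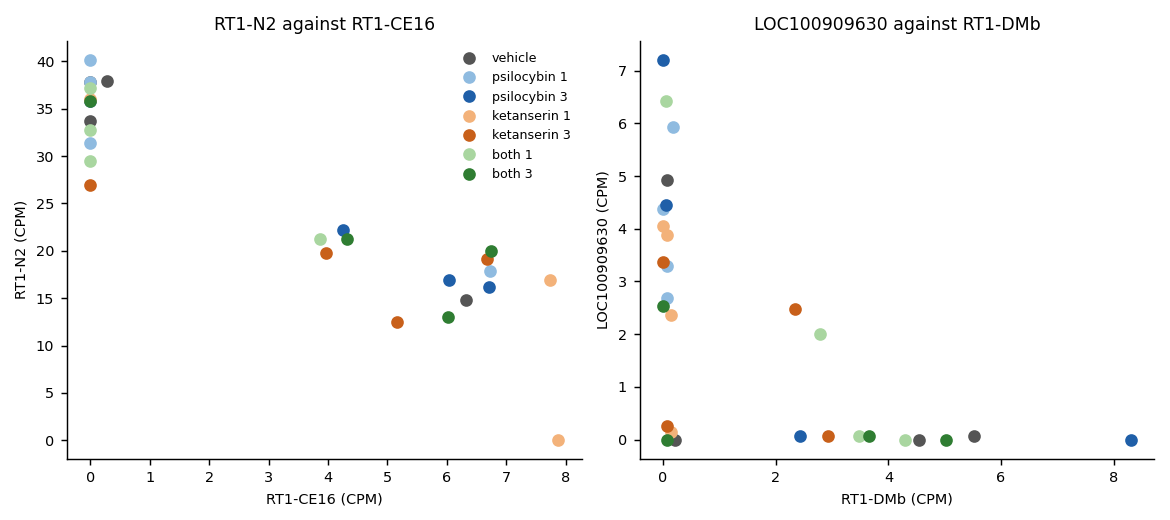
Left, CPM of RT1-N2 against RT1-CE16 and, right, CPM of the gene LOC100909630 against RT1-DMb, with 1 point per animal coloured by treatment group (doses in mg/kg). On the left the 14 animals high for RT1-CE16 lie at 22.2 CPM of RT1-N2 or below and the other 14 at 27 or above; on the right 22 of 28 animals are high for 1 gene and low for the other.

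For the 3 members at 2 levels, the named genes outside the RT1 family whose pattern was most like theirs were found by Pearson r of log2(CPM + 0.1) over the 28 libraries, as a measure of likeness with no test. For RT1-CE16 they were Rps2-ps2 (r = 0.981), RGD1562652 (r = 0.957) and Krt1 (r = 0.662). Rps2-ps2, a ribosomal protein pseudogene, was at 2.40 to 10.8 CPM in the 14 animals high for RT1-CE16 and at 0.133 CPM or below in the other 14. RGD1562652 was high in 13 of those 14 animals and in none of the others. Both lie on chromosome 20, where Rps2-ps2 ends 11.6 kb before RT1-N2 and 656 kb before RT1-CE16, and RGD1562652 ends 6.25 kb and 651 kb before them. The pair thus lies next to RT1-N2 on rn6 and far from RT1-CE16. For RT1-M1-2 the 3 were Tmem169 (r = 0.689), Gm5611 (-0.638) and Nubpl (0.59), none of them on chromosome 20.

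For RT1-DMb the 3 were LOC100909630 (r = -0.703), LOC497940 (-0.703) and Trmt1l (0.644). LOC100909630, annotated as a class II M beta 1 chain-like gene, lies at chr20:3945601-3952846, plus strand, of rn6, so by its annotated name it is another record of the same kind of gene, and the sequences were not compared. In 9 animals RT1-DMb was high and LOC100909630 low (0.252 CPM or below), and in 13 the reverse (2.36 to 7.21 CPM of LOC100909630). Both were high in 2 animals, ketanserin at 3 mg/kg replicate 3 and both drugs at 1 mg/kg replicate 4. Both were low in 4, vehicle replicate 4, ketanserin at 1 mg/kg replicate 2, ketanserin at 3 mg/kg replicate 4 and both drugs at 3 mg/kg replicate 4. The sum of the pair ranged from 0.0762 to 8.31 CPM (median 4.0), and its within-group SD was 1.48, beside 2.32 and 2.38 for the records alone. For the alpha chain, RT1-DMa and the like record LOC100909593 summed to 0.805 to 7.0 CPM with an SD of 0.855, beside 0.970 for RT1-DMa alone. Whether reads were divided between such records was not tested.

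The RT1 levels of 2 libraries were extreme for several members. The library of ketanserin at 1 mg/kg replicate 2 was the lowest of 28 for 6 members and the highest for 3. It held 1 count of RT1-N2 where the others held 12.5 to 40.2 CPM, 0 counts of RT1-S2 where the others held 1.14 to 4.15 CPM, and 0.645 CPM of RT1-T24-3 where the others held 1.21 to 7.94. RT1-A2 (0.573 CPM), RT1-CE4 (0.931) and RT1-O1 (0.0716) were also lowest there. RT1-S3 (26.1 CPM), RT1-T24-4 (12) and RT1-CE16 (7.88) were highest there. Its median correlation with other libraries over all tested genes was 0.978, inside the range of 0.962 to 0.982 of the 27 libraries other than both drugs at 3 mg/kg replicate 4. That last library had a median correlation of 0.927. It was lowest for 9 members, among them RT1-M3-1 (6.55 CPM) and the class II genes RT1-Da, RT1-Db1, RT1-DOb and RT1-Bb, held 0 counts of 10 members, and was highest for RT1-M6-1 and RT1-M1-2. It also had the lowest total count (12783067) and 19602 gene rows at 0, so an RT1 trait and a library-wide one cannot be told apart. For neither library is the share of all tested genes that were lowest or at 0 given here.

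Relations between members across animals were computed for 26 members, leaving out the 3 at 2 levels. Of 325 pairs, 11 passed a two-sided permutation test (100000 resamples, Benjamini-Hochberg adjusted p under 0.05) by both Pearson r and Spearman rho. Since the values of RT1-N2 fall into separate ranges, no pooled r is given for the 4 pairs that hold it. Those were positive with RT1-T24-3, RT1-S2 and RT1-CE4 and negative with RT1-S3. Ketanserin at 1 mg/kg replicate 2 held 1 count of RT1-N2. Without it, r was much smaller with RT1-S2 and RT1-CE4 and slightly smaller with RT1-T24-3. With RT1-S3 it was slightly more negative. All 4 pairs kept their sign, and whether they would still pass was not tested. Of the other 7 pairs, 6 were positive. RT1-A2 and the class II beta chain RT1-Db1 had r = 0.734 and rho = 0.723 (adjusted permutation p = 0.00162 and 0.00325), and r was 0.695 without the 2 libraries farthest from the median. RT1-A2 also went with RT1-CE4 (r = 0.640, rho = 0.564) and against RT1-M6-1 (r = -0.568, rho = -0.599). RT1-M6-1 and RT1-M6-2 (r = 0.612, rho = 0.657) overlap, so shared reads may enter that value. Adjusted permutation p-values of these 3 pairs were 0.0134, 0.0253 and 0.016 for r. Without both drugs at 3 mg/kg replicate 4, r was 0.720 for RT1-A2 with RT1-Db1, 0.702 with RT1-CE4, -0.519 with RT1-M6-1, and 0.673 for the overlapping pair.

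Part of these relations rested on 1 animal. For RT1-CE4 and RT1-S2, r = 0.726 and rho = 0.612 with all 28 libraries, r = 0.545 without ketanserin at 1 mg/kg replicate 2, and r = 0.751 without both drugs at 3 mg/kg replicate 4. For RT1-T24-3 and RT1-CE4, r = 0.565 became 0.327 without it (rho 0.596 and 0.549), and r was 0.376 without the 2 libraries farthest from the median and 0.650 without both drugs at 3 mg/kg replicate 4. RT1-A2 and RT1-CE4 gave r = 0.463 without that animal, and RT1-A2 with RT1-Db1 gave 0.743. For the class II members RT1-Da and RT1-DOb, r = 0.591 and rho = 0.594, with r = 0.412 without the 2 farthest libraries and 0.497 without both drugs at 3 mg/kg replicate 4.

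The 2 chains of the RT1-D pair were high in the animals with high Cd74, and the other 4 class II members tested did not pass. RT1-DMb, at 2 levels, was not tested against Cd74. RT1-Da, the alpha chain of the RT1-D pair, held 2.64, 2.51, 2.79 and 2.95 CPM in vehicle, and 0.686 to 5.68 CPM over all 28 libraries. With Cd74 it gave r = 0.775 and rho = 0.817 over 28 animals (adjusted permutation p = 0.00018 for both, from the smallest p of 1e-05 that 100000 resamples can give), and r was 0.787 without the 2 libraries farthest from the median and 0.765 without both drugs at 3 mg/kg replicate 4. RT1-Db1 gave r = 0.597 and rho = 0.643 with Cd74 (adjusted permutation p = 0.00828 and 0.00279), and r = 0.582 without that library. RT1-DOb (r = 0.408), RT1-DMa (0.379), RT1-Bb (0.327) and RT1-Ba (0.226) did not pass. Without both drugs at 3 mg/kg replicate 4 their r values were 0.371, 0.373, 0.256 and 0.168. The animals with most Cd74, psilocybin at 3 mg/kg replicates 1 and 2 (30.7 and 24.7 CPM), also held 5.68 and 4.12 CPM of RT1-Da, and replicate 4 of that group had the least Cd74 (5.10 CPM) and 0.952 CPM of RT1-Da. These 18 relations, with Cd74 and with 2 marker sums, were chosen after the data had been seen.

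**Figure D5:**
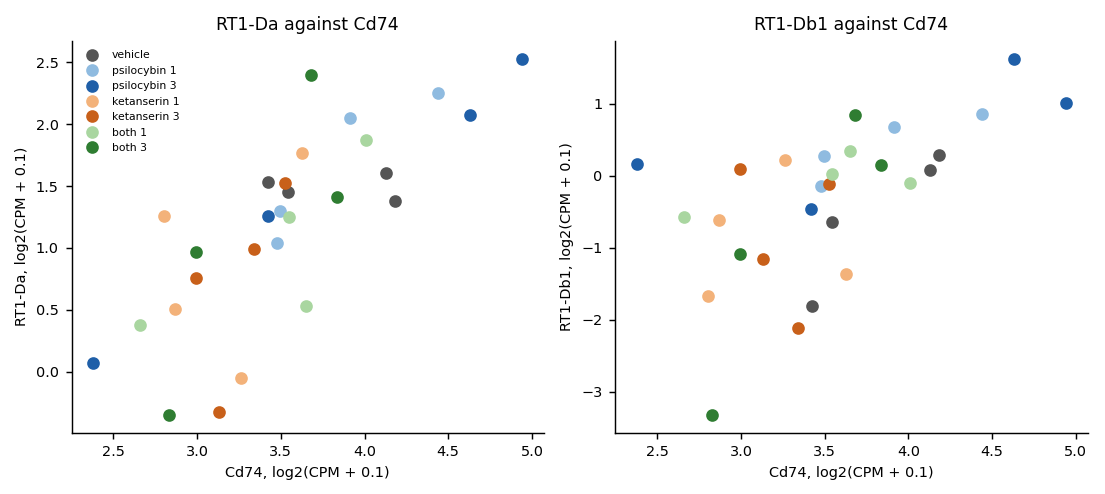
Log2(CPM + 0.1) of RT1-Da (left) and RT1-Db1 (right) against that of Cd74, 1 point per animal coloured by treatment group (doses in mg/kg). RT1-Da and Cd74 rise together across the 28 animals (r = 0.775), more loosely for RT1-Db1 (r = 0.597), and groups are mixed along the line.

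Markers of the cells known to make class II RNA were taken as sums, which do not show the range of each gene. Single microglia markers differed in range. Aif1 ran from 5.79 to 28.5 CPM and Cx3cr1 from 2.61 to 14.2 CPM, while Csf1r, the highest of them, ran from 62.0 to 89.8 CPM. The 11 microglia markers summed to 221.2 to 342.0 CPM per library and the 6 border macrophage and dendritic markers to 13.9 to 22.9 CPM. Flt3 weighs most in the second sum, with a mean of 10.8 CPM beside 3.3 for Mrc1 and 3.0 for Lyve1. None of 12 relations between a class II member and these sums passed. For RT1-Da, r was 0.15 with the microglia sum (adjusted permutation p = 0.619) and 0.325 with the border macrophage sum (adjusted permutation p = 0.237). Without both drugs at 3 mg/kg replicate 4 these r values were 0.0431 and 0.329. In vehicle the microglia sum ran from 245.1 to 300.2 CPM and after psilocybin at 3 mg/kg from 250.5 to 342.0 CPM. Xcr1, a marker of one dendritic cell type, was at 0 to 0.252 CPM, and the T cell marker Cd3e at 0 to 1.06 CPM. What cells the class II RNA came from was not tested.

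Other genes of antigen presentation were also not called. Of the 30 symbols in that list, 29 rows were tested, with Tap2 in 2 records, and 0 were called higher or lower in any of the 13 edgeR comparisons. Their median log2 fold change from vehicle lay between -0.16 (both drugs at 3 mg/kg) and 0.04 (psilocybin at 3 mg/kg), and it was -0.21 for both drugs at 3 mg/kg against psilocybin, beside -0.01 for all tested genes. The lowest p in that last comparison belonged to Ifi30, a lysosomal reductase that prepares antigens (-0.63, adjusted p = 0.693 in edgeR). Ciita, the master regulator of class II transcription, had a mean of 0.304 CPM (0 to 1.37), and Nlrc5, its class I counterpart, one of 0.354 CPM (0 to 0.985). Of the 19 interferon-responsive genes, all tested, 0 were called in any comparison, and their median log2 fold change from vehicle was -0.02 (ketanserin at 3 mg/kg) to 0.18 (psilocybin at 1 mg/kg and at 3 mg/kg). Within-group SDs in the list differed between genes of like function: 0.607 for the immunoproteasome subunit Psmb8 and 0.270 for Psmb9 at means of 2.86 and 2.89 CPM, 0.808 and 1.42 for the records of the peptide transporter subunit Tap2, 0.309 for its partner Tap1, 0.179 for Tapbp and 0.288 for B2m.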

How the data were processed

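Poly-A RNA of prefrontal cortex was made into dUTP strand-marked libraries, per the labels' protocols. The authors deposited raw counts of reads per gene with gene coordinates, and FPKM per gene, per the file headers. Build rn6 and the programs featureCounts 1.5.0-p3, HISAT2 2.0.5 and StringTie 1.3.3b are listed in the submitters' processing notes. The strand setting of the counting, and how reads that match several genes were handled, are not given in the sources used here. RT1 genes are alike in sequence and 6 pairs of members overlap on the same strand, so reads can have been divided between them or lost. The rn6 reference is of an inbred strain, and how alleles that differ from it were counted was not tested.

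Counts were analysed with edgeR 4.0.16 in R 4.3.3: filterByExpr by group left 17404 genes, libraries were scaled by TMM, and a robust quasi-likelihood model with a coefficient for each group was fitted over the 28 libraries (21 residual degrees of freedom). P-values were two-sided, with Benjamini-Hochberg adjustment over all 17404 genes, and genes were called under 0.05. CPM are relative to TMM-scaled totals. Log values use a pseudocount of 0.1. FPKM were used only to compare levels between genes and as an alternative. DESeq2 1.42.0 was an alternative, and the edgeR test was tested on simulated data. Correlations used scipy 1.17.1 with 100000 permutations. No 2 libraries agreed within sampling noise (chi-square per gene at least 6.15). Samples were grouped by the labels. In each comparison the text names called members, or else the 3 with the lowest p, and for spread every member at 2 levels and the 3 with the largest and the smallest SD at a mean of at least 1 CPM. Members and lists were chosen with earlier results of these data known. The RT1-N2 division, the other records of DM genes, the Cd74 and marker relations, the 2 single-library profiles and the motifs were chosen after values had been seen. Counting depth limits the low members, 10 of which had a mean under 1 CPM.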

Additional observations from a re-analysis of the deposited data

Results flagged for a closer look

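In each group of 4 animals, a member's highest or lowest library was compared with the other 3 by the gap to its nearest neighbour as a share of the whole range (Dixon's limit at 95%). Of 203 such groups, 17 passed the limit. Chance passes about 1 in 20 groups, so that part of these can be chance.

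RT1-CE16 was far above the other 3 libraries in vehicle replicate 3 (6.32 CPM, others 0 to 0.274), psilocybin at 1 mg/kg replicate 2 (6.73 CPM, others 0) and both drugs at 1 mg/kg replicate 3 (3.87 CPM, others 0). These are the animals on the high side in groups that held 1 such animal.

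RT1-M6-1 was far from the others in 3 groups. It was high in psilocybin at 3 mg/kg replicate 4 (4.42 CPM, others 2.49 to 2.76) and in both drugs at 3 mg/kg replicate 4 (7.31 CPM, others 2.79 to 3.21), and low in both drugs at 1 mg/kg replicate 1 (1.41 CPM, others 3.97 to 4.45). RT1-S3 was low in psilocybin at 3 mg/kg replicate 4 (13.7 CPM, others 19.8 to 20.5) and RT1-M3-1 in vehicle replicate 1 (8.79 CPM, others 12.2 to 12.8).

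Among class II members, RT1-DMa was high in ketanserin at 3 mg/kg replicate 1 (6.06 CPM, others 0.252 to 0.929) and, by a small step, in ketanserin at 1 mg/kg replicate 1 (1.11 CPM, others 0.998 to 1.00). RT1-Bb was high in ketanserin at 1 mg/kg replicate 4 (1.86 CPM, 26 counts, others 0.573 to 0.665) and both drugs at 1 mg/kg replicate 2 (0.847 CPM, 13 counts, others 0.228 to 0.306).

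The remaining 5 rest on 12 to 16 counts. RT1-CE10 was high in psilocybin at 1 mg/kg replicate 1 (0.982 CPM), RT1-CE5 in ketanserin at 3 mg/kg replicate 3 (1.04 CPM) and RT1-M1-4 in ketanserin at 1 mg/kg replicate 1 (0.901 CPM). RT1-M5 was high in ketanserin at 1 mg/kg replicate 2 (1.15 CPM) and ketanserin at 3 mg/kg replicate 1 (0.782 CPM).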

How the results depend on the processing

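The count of called members stayed at 0 in all 204 alternative runs (DESeq2, upper-quartile factors, no filter beyond 1 count, RT1 rows left out of library sizes, only the compared groups, and each library left out in turn). All 506 alternative log2 fold changes of named members kept their direction and stayed on the same side of the threshold, though 1 library moved some by over 1.5 times, among them RT1-DMa, from -1.91 to -0.22 against ketanserin at 3 mg/kg. The count of members at 2 levels was 3 with FPKM, 2 (RT1-CE16 and RT1-DMb) with a pseudocount of 0.5 or a gap of 2, and 5 with at least 2 libraries on each side, which added RT1-DMa and RT1-O1 (2.4% of all tested genes). Leaving out 1 library at a time gave 3 to 4, adding RT1-T24-3 without ketanserin at 3 mg/kg replicate 2 and RT1-M1-4 without both drugs at 3 mg/kg replicate 1. The median within-group SD fell from 0.970 to 0.325 with a pseudocount of 2 (0.234 for all tested genes) and was 0.744 on FPKM, since a larger pseudocount damps low members. The share of variance between groups was 19.8% with a pseudocount of 2. Pairs passing by r numbered 23, with 42 when values were centred on group means, 23 on FPKM, and 17 without both drugs at 3 mg/kg replicate 4, an alternative chosen after seeing the data; the cause of the rise with centring was not tested. No paired analysis was possible because the labels number no replicates.

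At these depths a member with a mean under 1 CPM rests on few counts per library.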
